A study of Mus musculus with 12 samples.

Results

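Genes that set the lifetime of inflammatory mRNAs were examined in cerebral vessels of mice given bacterial lipopolysaccharide (LPS), which mimics a systemic bacterial infection. The set was fixed by symbol and held 9 genes of the 54119 with summed counts: the AU-rich element binding proteins Zfp36, Zfp36l1, and Zfp36l2, the Regnase genes Zc3h12a and Zc3h12c, the Roquin gene Rc3h1, the RNA-binding genes Arid5a and Elavl1, and the nocturnin gene Noct. All 9 matched 1 protein-coding gene each of GRCm38 and passed the filter on low counts. The vessels came from wild type C57BL6 mice aged 2 to 3 months that received LPS intraperitoneally at 10 mg/kg and were killed after 15 min, 30 min, or 4 h, or that received PBS. Each of the 4 groups had 3 libraries, and each library pooled the vessels of 1 male and 1 female, so 6 mice stood behind a group. Brains were perfused, freed of meninges, and the forebrain was homogenized, spun through dextran, and caught on a mesh, so a library holds every cell type attached to a vessel. Neither the time of day nor the interval between PBS and tissue collection is given in the sources used here. The comparisons asked which of these regulators changed, how early, and whether each had fallen or risen further by 4 h.

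As background, AU-rich elements are stretches of ATTTA in the 3′ untranslated regions of many cytokine mRNAs. Zfp36 (tristetraprolin) and its relatives bind these elements and recruit the CCR4-NOT complex, which removes the poly(A) tail. Zc3h12a (Regnase-1) is an endonuclease, and Rc3h1 (Roquin-1) recruits the deadenylase, both at stem-loops in mRNAs such as Il6. Arid5a and Elavl1 (HuR) bind overlapping groups of transcripts and protect them from decay. Noct encodes nocturnin, a clock-controlled protein related to the deadenylases.

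Depth was 18309177 to 25882028 assigned fragments per library. Levels are given in CPM, the counts of a gene relative to the depth of its library, scaled by TMM (trimmed mean of M values) factors, which averaged 1.17 in PBS and 0.717 at 4 h, so the scaling bears on the 4 h values most. With library size only, the median log2 fold change of all genes moved from −0.0098 to −0.71 at 4 h, from −0.010 to −0.17 at 30 min, from −0.0035 to −0.14 for 30 min against 15 min, and from −0.039 to −0.58 for 4 h against 30 min. The share of calls that were higher then moved from 58.0% to 18.2%, from 82.6% to 61.4%, from 57.9% to 37.2%, and from 58.9% to 21.7% in the same order. TPM, the transcript abundance that Salmon gives, is scaled to transcript length and to a constant sum, and carries no TMM factor. Endothelial markers were high throughout, with a summed level of 10185 to 10483 CPM in PBS and 7494 to 7524 at 4 h, and 5 of 8 were called lower and 1 higher at 4 h. Neutrophil markers summed to 4.2 to 5.0 CPM in PBS, with 1 of the 6 at 0, and to 183 to 184 at 4 h, where all 5 tested were called higher. Red blood cell markers rose from 1480 to 1596 CPM in PBS to 4442 to 4649 at 4 h, with 3 of 3 called. Microglial markers went from 146 to 150 CPM in PBS to 91.5 to 97.5 at 4 h, with 3 of 6 called lower. Astrocyte markers went from 362 to 390 CPM in PBS to 930 to 978 at 4 h, with 3 of 5 called higher, and perivascular macrophage markers from 84.8 to 87.3 CPM to 141 to 151, with 3 of 4 called higher. At 15 min smooth muscle markers were at 1488 to 1508 CPM against 2346 to 2382 in PBS, with 3 of 4 called lower, and neuron markers at 480 to 491 against 307 to 319, with 2 of 5 called higher. Genes of tissue outside the vessels summed to 3.24 to 5.17 CPM in PBS, with 3 of the 6 at 0, and to 33.2 to 37.9 at 15 min, 94.6 to 102 at 30 min, and 13.4 to 16.7 at 4 h. Their part in the values below was not tested, and in bulk tissue fewer cells of a type and less RNA per cell cannot be told apart.

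The edgeR p-values set a difference against the spread between pools of the same group, estimated over all 4 groups together. They do not reflect the spread between single mice. A gene was called changed where edgeR placed its change beyond 1.5-fold (0.58 on the log2 scale) at an adjusted p below 0.05 over the 19150 genes tested. At 15 min 2 of the 9 regulators were called higher, Zfp36 and Arid5a, where 3.31% of all genes were higher and 0.872% lower. At 30 min 4 were higher, with Zc3h12a and Noct added, against 3.78% of all genes higher and 0.799% lower. At 4 h 7 were higher and 1, Zfp36l2, was lower, against 19.0% and 13.8%. Rc3h1 was not called at any time. DESeq2 with the same fold limit called 2, 4, and 8 of the 9. Over the 9 the median log2 fold changes were 0.17, 0.50, and 1.00 at the 3 times, beside −0.0021, −0.010, and −0.0098 for all genes. With no fold limit 6, 8, and 9 of the regulators passed at the 3 times, where 38.6%, 36.9%, and 68.5% of all genes did. The libraries of a time did not overlap those of PBS for 6, 9, and 9 of them, and for 49.3%, 46.7%, and 70.9% of all genes. Between the LPS times, 4 regulators were higher at 30 min than at 15 min, where 2.69% of genes were higher and 1.96% lower. From 30 min to 4 h 3 were higher and 2 lower, where 16.9% of genes were higher and 11.8% lower. The LPS groups share the PBS libraries, so the 3 comparisons with PBS are not independent.

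**Figure D1:**
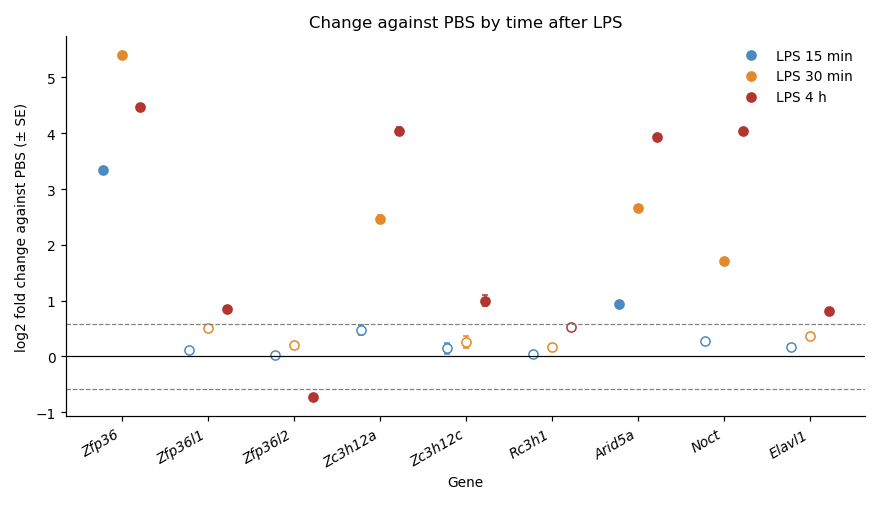
Log2 fold change against PBS (vertical axis, edgeR on TMM-scaled counts, bars are 1 SE) of each regulator at each of the 3 times after LPS, with filled points for genes called changed beyond 1.5-fold and dashed lines at 0.58 and −0.58. Zfp36 is highest at 30 min (5.40), Zc3h12a, Arid5a, and Noct are highest at 4 h (4.04, 3.94, and 4.04), and Zfp36l2 is the one gene called lower.

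Zfp36 (chromosome 7, 28376784 to 28380253, minus strand) gave the largest log2 fold change of the 9 at 15 and 30 min. At 4 h it was the largest in the counts without length correction, while Noct stood above it with an offset for the average transcript length and in limma on the gene table (4.68 against 4.45 in both), and in the ratio of TPM means. The gene table and TPM also scale genes of 1 library differently, so these are not independent readings. Zfp36 stood at 44.8, 44.1, and 44.0 CPM in the PBS libraries and at 440, 455, and 455 CPM 15 min after LPS. At 30 min it reached 1861, 1863, and 1898 CPM, and at 4 h it stood at 992, 993, and 973 CPM. The groups did not overlap, and the level at 4 h lay between those at 15 and 30 min. The log2 fold change against PBS was 3.34 (SE 0.0256, adjusted p = 1.77e-27) at 15 min, then 5.40 (SE 0.0269, adjusted p = 5.02e-32) at 30 min, and 4.48 (SE 0.0263, adjusted p = 1.47e-31) at 4 h. Between 15 and 30 min the gain was 2.06 (SE 0.0221, adjusted p = 2.08e-24). It then fell by 0.93 up to 4 h (SE 0.0215, adjusted p = 1.47e-13).

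AU-rich elements mark the targets of Zfp36, and the 3′ untranslated regions of the family hold such elements themselves. The pentamer ATTTA and the heptamer TATTTAT were counted in the coding transcript of each gene with the highest mean TPM over the 12 libraries. Zfp36 held 3 pentamers and 3 heptamers in 774 bases, Zfp36l1 9 and 3 in 1835 bases, Zfp36l2 5 and 3 in 1822 bases, and Noct 4 and 2 in 1112 bases. Zc3h12c held 14 and 2 in 4062 bases and Rc3h1 20 and 2 in 7181 bases, while Zc3h12a, Arid5a, and Elavl1 held 3, 2, and 3 pentamers and no heptamer. Among untranslated regions within 20% of the same length, 4.47% had at least as many pentamers as Zfp36l1, 18.0% as many as Zfp36, 26.1% as many as Zfp36l2, and 19.9% as many as Noct. The shares were 9.62% for Zc3h12c, 19.2% for Rc3h1, 20.7% for Zc3h12a, 37.2% for Elavl1, and 84.8% for Arid5a. A heptamer was present in 19.7% of the regions as long as that of Zfp36, in 38.1% for Zfp36l1, 37.9% for Zfp36l2, 28.0% for Noct, 60.7% for Zc3h12c, and 78.1% for Rc3h1. Below are the densest 30 bases of the 3 family members and of Noct, read from the GENCODE M21 transcripts of GRCm38 in the sense direction, with each ATTTA in capitals. The stretches lie at chr7:28376958-28376987, chr12:80108431-80108460, and chr17:84184918-84184947 on the minus strand and at chr3:51250857-51250886 on the plus strand.
Zfp36: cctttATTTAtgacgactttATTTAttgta
Zfp36l1: cttATTTAacttatcaaaacgtATTTAttg
Zfp36l2: gaaaaactATTTAacttATTTAttatcttg
Noct: atcatttcaagttATTTAtttgtgggattt

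Zfp36 has 1 intron, of 680 bases. The annotation gives a spliced transcript, Zfp36-201, and a single-exon transcript, Zfp36-202, that reads through the intron. The 2 transcripts also differ in their first base, which is 28380253 in Zfp36-201 and 28379255 in Zfp36-202, so the split of fragments between them does not rest on splicing alone. The bases around the splice site are the 15 before and the 15 after the start of the second exon, shown 5′ to 3′ with the second exon in capitals. In Zfp36-201 the lower case is the end of the first exon, and in Zfp36-202 (chr7:28378479-28378508, minus strand) it is the end of the intron.
Zfp36-201: tctgccatctacgagAGCCTCCAGTCGATG
Zfp36-202: ccctgttcctctcagAGCCTCCAGTCGATG

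The share of Zfp36 fragments that Salmon assigned to the read-through transcript was 37.5%, 46.6%, and 27.8% in PBS. It was 50.7%, 49.98%, and 52.6% at 15 min, 33.2%, 32.8%, and 32.4% at 30 min, and 40.0%, 40.2%, and 40.8% at 4 h. The 15 min libraries lay above all others, and the PBS libraries spread over the range of the later times. In TPM the read-through transcript stood at 11.6 ± 2.96 (SD, n = 3) in PBS and at 160 ± 5.43, 347 ± 2.38, and 149 ± 1.84 at the 3 times after LPS. The spliced transcript stood at 17.1 ± 2.44, 134 ± 3.93, 624 ± 5.61, and 193 ± 5.51 in the same order. The share was picked out after its values were seen and was not tested. The library kit keeps no strand, and the antisense gene Gm44710 overlaps the first exon of Zfp36 and part of its intron. It held a mean of 25 fragments in PBS and 12, 13.3, and 10.3 at the 3 times, below the Zfp36 totals at each time.

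The promoter window of Zfp36 in RefSeq (GRCm38.p6, 250 bases before to 50 after the start) held a CArG box, the site of serum response factor, 58 to 49 bases before the start. All of this window lies in annotated exons, and the box lies in the first exon of Zfp36-201 described above. It is shown because Zfp36 was the earliest large rise of the set. Its 30 bases (chr7:28379268-28379297, minus strand) have the box in capitals.
Zfp36: cccaggccgccCCATAAAAGGagaaagctc
Windows were searched on both strands for this box and for an NF-kB site (both by name), TGANTCA (AP-1), and TGACGTCA (cAMP response element). Of all 32851 RefSeq promoter windows, 1.63% held the CArG box, 4.51% the NF-kB site, 7.81% the AP-1 site, and 1.79% the cAMP response element. Zfp36l1 held an AP-1 site 129 bases and Rc3h1 one 133 bases before the start. The windows of Arid5a, Noct, Zc3h12a, Zc3h12c, and Elavl1 held none of the 4, which says only that these letters are not in those windows. Zfp36l2 has no entry in the table.

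Zfp36l1 (chromosome 12, 80107754 to 80113013, minus strand) was the family member with the highest level in PBS. It stood at 239, 229, and 235 CPM in PBS, at 242, 254, and 266 at 15 min, and at 338, 330, and 325 at 30 min. At 4 h it stood at 416, 422, and 432 CPM, above every PBS library. The log2 fold change was 0.12 (SE 0.0305, adjusted p = 1) at 15 min, then 0.50 (SE 0.0304, adjusted p = 1) at 30 min, and 0.85 (SE 0.0308, adjusted p = 7.09e-09) at 4 h. The 4 h call was also made with RLE size factors, DESeq2, and limma. Scaled to library size only, the 4 h value was 0.15 (adjusted p = 1), and in TPM the level was 138 ± 4.33 (SD, n = 3) in PBS and 129 ± 1.55 at 4 h.

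Zfp36l2 (chromosome 17, 84183931 to 84187947, minus strand) went the other way. It stood at 106, 104, and 107 CPM in PBS, at 104, 108, and 108 at 15 min, and at 125, 120, and 117 at 30 min. At 4 h it stood at 66.7, 63.1, and 61.3 CPM, below every library of the other groups. Its log2 fold change was 0.017 at 15 min and 0.20 at 30 min (adjusted p = 1 for both), and it was −0.73 (SE 0.0403, adjusted p = 0.000789) at 4 h. From 30 min to 4 h it fell by 0.92 (SE 0.0404, adjusted p = 1.77e-08). In TPM the level was 50.4 ± 0.922 (SD, n = 3) in PBS and 16.1 ± 0.872 at 4 h. The summed microglial and endothelial markers, which were also lower at 4 h, are given above, and their part in this value was not tested.

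The make-up of the family does not depend on how libraries are scaled. Zfp36 held 13.3%, 13.3%, and 13.2% of the family TPM in the PBS libraries and 60.5%, 59.9%, and 59.2% at 15 min. It held 82.4%, 83.0%, and 83.4% at 30 min and 70.4%, 70.5%, and 69.5% at 4 h, so each LPS time lay apart from PBS. The share of Zfp36l1 was 63.5% ± 0.621 (SD, n = 3) in PBS, 29.8% ± 0.818 at 15 min, 13.1% ± 0.336 at 30 min, and 26.6% ± 0.670 at 4 h. The share of Zfp36l2 was 23.2% ± 0.664, 10.3% ± 0.198, 3.95% ± 0.144, and 3.31% ± 0.135 in the same order. Each of the 15 comparisons of a share or ratio with PBS gave p = 0.1 in a two-sided exact permutation test (adjusted p = 0.1), the smallest that 3 against 3 libraries allow.

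**Figure D2:**
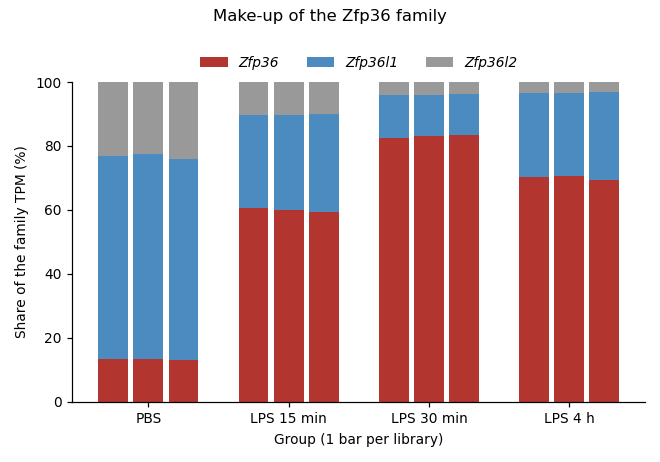
Share of the summed TPM of Zfp36, Zfp36l1, and Zfp36l2 held by each gene (vertical axis, percent), with 1 bar for each of the 3 libraries of a group. Zfp36 takes 13.2% of the family in PBS and 82.9% at 30 min on average, and Zfp36l2 goes from 23.2% in PBS to 3.31% at 4 h.

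Zc3h12a (chromosome 4, 125118423 to 125127840, minus strand), the Regnase-1 gene, was first called at 30 min. It stood at 8.69, 10.0, and 7.56 CPM in PBS and at 12.1, 13, and 11.6 at 15 min. It then reached 49.1, 48.7, and 47.7 CPM at 30 min and 148, 148, and 140 at 4 h. The groups did not overlap, although the 15 min libraries lay close to the highest PBS library. The log2 fold change was 0.47 (SE 0.0831, adjusted p = 1) at 15 min, then 2.46 (SE 0.0707, adjusted p = 1.37e-16) at 30 min, and 4.04 (SE 0.0676, adjusted p = 5.42e-23) at 4 h. Both later steps were called, with 1.99 (SE 0.0676, adjusted p = 2.34e-14) from 15 to 30 min and 1.58 (SE 0.0558, adjusted p = 1.71e-14) from 30 min to 4 h.

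Zc3h12c (chromosome 9, 52111344 to 52168572, minus strand), a relative of Zc3h12a, was the lowest of the 9 in TPM in every group. It stood at 9.48, 8.84, and 9.31 CPM in PBS, at 9.87, 9.43, and 11.2 at 15 min, and at 10.3, 12, and 10.8 at 30 min. At 4 h it stood at 19.6, 18.3, and 17.3 CPM, above every earlier library. Its log2 fold change was 0.14 at 15 min and 0.26 at 30 min (adjusted p = 1 for both), and 1.00 (SE 0.105, adjusted p = 0.000273) at 4 h. With library size only the 4 h value was 0.29 (adjusted p = 1), and the TPM was 2.20 ± 0.0902 (SD, n = 3) in PBS and 2.38 ± 0.133 at 4 h. The step of 0.74 from 30 min to 4 h was not called (adjusted p = 0.0789), and it was called without LPS 30 min replicate 2 (0.79, adjusted p = 0.0422).

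Rc3h1 (chromosome 1, 160906418 to 160974978, plus strand), the Roquin-1 gene, was not called at any time by edgeR, DESeq2, or limma with the fold limit. It stood at 55.7, 54.3, and 56.7 CPM in PBS, at 54.9, 56.4, and 60.6 at 15 min, at 60.8, 64.3, and 62.5 at 30 min, and at 82.6, 80.6, and 77.9 at 4 h. The 4 h libraries lay above all others, with a log2 fold change of 0.53 (SE 0.0466) that is under the limit of 0.58 (adjusted p = 1). With no fold limit the 4 h value passed (adjusted p = 6.43e-10). With library size only the 4 h value was −0.17. In TPM the order turned as well, with 7.91 ± 0.122 (SD, n = 3) in PBS and 6.12 ± 0.262 at 4 h.

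Arid5a (chromosome 1, 36307733 to 36324029, plus strand), whose protein protects Il6 mRNA and opposes Regnase-1, was the other gene called at 15 min. It stood at 33.8, 30.7, and 31.5 CPM in PBS and at 60.8, 62.6, and 60.7 at 15 min. It stood at 201, 207, and 197 CPM at 30 min and at 506, 482, and 488 at 4 h, so each time lay above the one before. Against PBS the log2 fold change was 0.94 (SE 0.0399, adjusted p = 8.63e-08) at 15 min, then 2.66 (SE 0.0371, adjusted p = 4.30e-23) at 30 min, and 3.94 (SE 0.0371, adjusted p = 8.19e-28) at 4 h. The 15 min value was 0.79 and not called (adjusted p = 0.176) in limma on the authors' gene table, and it stayed called in the other fits listed in the closing section. The steps were 1.72 (SE 0.0344, adjusted p = 1.64e-18) from 15 to 30 min and 1.29 (SE 0.0313, adjusted p = 1.84e-16) from 30 min to 4 h.

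Salmon spread the Arid5a fragments over several transcripts. Arid5a-204, a coding transcript of 4640 bases, held 44.6% ± 1.67 (SD, n = 3) of them in PBS, 43.4% ± 3.48 at 15 min, 36.5% ± 0.982 at 30 min, and 23.0% ± 1.49 at 4 h. Arid5a-205, of 2056 bases and annotated as a target of nonsense-mediated decay, held 26.4% ± 4.43, 31.0% ± 1.98, 32.1% ± 1.33, and 46.6% ± 1.69. The 4 h libraries lay apart from all others for both transcripts. These shares were picked out after their values were seen and were not tested. With an offset for the average transcript length, the 4 h log2 fold change of Arid5a was 4.31.

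Arid5a and Zc3h12a are known to act in opposite directions on Il6 mRNA, and their ratio was taken within each library. The log2 ratio of Zc3h12a to Arid5a TPM was −1.56, −1.69, and −1.84 in PBS and −2.12, −2.18, and −2.12 at 15 min. It was −2.20, −1.88, and −1.96 at 30 min and −2.11, −2.0, and −2.09 at 4 h. Every LPS library lay below every PBS library, by 0.44, 0.32, and 0.37 on average, and each comparison had p = 0.1 in the exact permutation test. With estimated counts in place of TPM the 4 h difference turned to 0.12, so its direction depends on the length correction.

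Elavl1 (chromosome 8, 4285382 to 4325413, minus strand), the HuR gene, was called at 4 h only. It stood at 48.3, 50.6, and 49.3 CPM in PBS, at 55.4, 55.2, and 56.0 at 15 min, and at 60.7, 67.5, and 63.1 at 30 min. At 4 h it stood at 91.2, 82.8, and 87.0 CPM. The groups did not overlap, and the log2 fold change was 0.17 and 0.37 at the first 2 times (adjusted p = 1 for both) and 0.82 (SE 0.0481, adjusted p = 3.61e-05) at 4 h. Under library size alone the 4 h value was 0.11 (adjusted p = 1), and the TPM was 28.7 ± 2.38 (SD, n = 3) in PBS and 30.5 ± 4.32 at 4 h. Ccl25 overlaps the start of Elavl1 on the other strand, with a mean of 187 fragments in PBS and 101 at 4 h.

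Zfp36 and Elavl1 are known to act in opposite directions on AU-rich mRNAs, and their mRNAs were set against each other within each library. In PBS they stood side by side, with a TPM ratio of 1.00 ± 0.0580 (SD, n = 3). At 15 min the ratio of Zfp36 to Elavl1 was 9.22 ± 0.239, at 30 min 28.5 ± 1.1, and at 4 h 11.3 ± 1.60. On the log2 scale the libraries were −0.060, −0.028, and 0.096 in PBS and 4.87, 4.77, and 4.86 at 30 min, and no LPS library reached the PBS range (p = 0.1 in the exact permutation test at each time).

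Noct (chromosome 3, 51224447 to 51251644, plus strand) was first called at 30 min and had the highest TPM of the 9 at 4 h. It stood at 125, 118, and 121 CPM in PBS and at 148, 143, and 149 at 15 min. It stood at 401, 386, and 400 CPM at 30 min and at 2005, 1969, and 2006 at 4 h, with no overlap between groups. The log2 fold change was 0.27 (SE 0.0265, adjusted p = 1) at 15 min, then 1.71 (SE 0.0260, adjusted p = 4.18e-21) at 30 min, and 4.04 (SE 0.0274, adjusted p = 2.31e-30) at 4 h. The step from 30 min to 4 h was 2.33 (SE 0.0251, adjusted p = 9.60e-26) and that from 15 to 30 min 1.43 (SE 0.0257, adjusted p = 8.58e-19).

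The gene total of Noct joins 4 annotated transcripts, of which Noct-201 and Noct-202 held the most fragments. Noct-201 starts at the first base of the gene and splices over an intron of 22517 bases. Noct-202, of 9797 bases, starts inside that intron, at 51240206, and reads into the second exon. The bases around the start of the second exon are shown 5′ to 3′ with that exon in capitals. The lower case is the end of the first exon in Noct-201 and the end of the intron in Noct-202 (chr3:51247790-51247819, plus strand).
Noct-201: cgcgtccccgaacagTGAGTTCCATGGGAA
Noct-202: ctgtttctcctgcagTGAGTTCCATGGGAA

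Noct-201 was at 2.22, 0, and 1.75 TPM in the PBS libraries, so it was listed at 0 in 1 of them. It stood at 7.65, 6.87, and 8.83 TPM at 15 min, at 40.6, 41.8, and 38.3 at 30 min, and at 306, 303, and 305 at 4 h. In that library Salmon gave 3.49 TPM to Noct-203, a transcript listed at 0 in the other PBS libraries and in all libraries at 15 and 30 min. All LPS libraries lay above all PBS libraries in Noct-201, at 15 min as well, where the gene total was not called. The short Noct-204 stood at 11 ± 2.07 TPM (SD, n = 3) in PBS, 7.54 ± 1.40 at 15 min, 10.5 ± 2.25 at 30 min, and 59.7 ± 1.15 at 4 h. Noct-202 was at 18.4 ± 0.712 TPM (SD, n = 3) in PBS, 20.8 ± 0.286 at 15 min, 39.6 ± 1.42 at 30 min, and 78.4 ± 2.09 at 4 h. The share of Noct fragments given to Noct-201 was thus 1.95% ± 1.71, 9.68% ± 1.14, 22.9% ± 1.34, and 52.4% ± 0.596. Noct-202 went from 93.1% ± 1.61 in PBS to 45.4% ± 0.215 at 4 h. The 4 h log2 fold change of the gene was 4.68 with an offset for the average transcript length and 4.04 without it. The transcripts were picked out after their values were seen and were not tested. Gm38357, a gene model inside the same intron, went from a mean of 15 fragments in PBS to 19.3, 143, and 391.

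**Figure D3:**
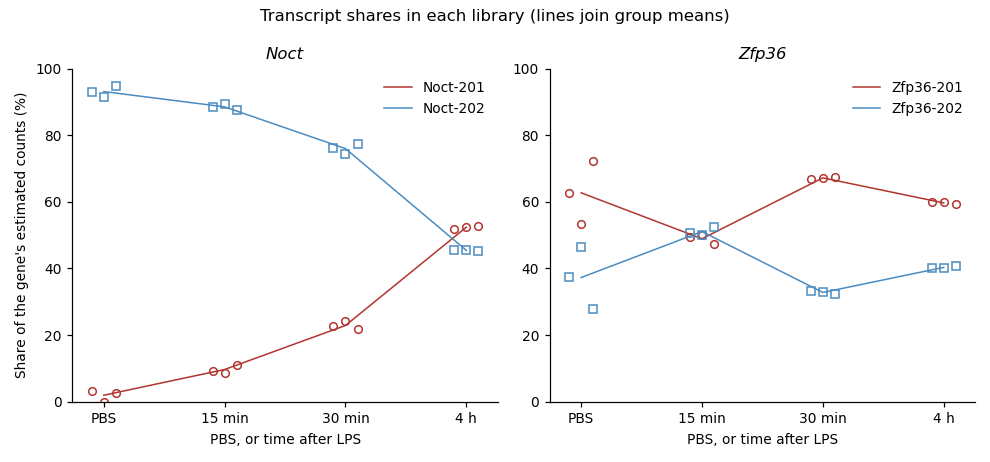
Share of the estimated counts of Noct (left) and Zfp36 (right) assigned to each of 2 transcripts (vertical axis, percent), with 1 point per library and lines through the group means. Noct-201 rises from 1.95% in PBS to 52.4% at 4 h, and the read-through Zfp36-202 is at 51.1% at 15 min and 32.8% at 30 min.

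The sequence before the Noct-201 start is shown with those of Zc3h12a and Arid5a, since these 3 genes were called at 30 min and were higher still at 4 h. Each is the 250 bases before the RefSeq start (GRCm38.p6), 5′ to 3′, at chr3:51224197-51224446 (plus), chr4:125127882-125128131 (minus), and chr1:36307483-36307732 (plus). Nothing is in capitals because none of the 4 motifs above matched.
Noct: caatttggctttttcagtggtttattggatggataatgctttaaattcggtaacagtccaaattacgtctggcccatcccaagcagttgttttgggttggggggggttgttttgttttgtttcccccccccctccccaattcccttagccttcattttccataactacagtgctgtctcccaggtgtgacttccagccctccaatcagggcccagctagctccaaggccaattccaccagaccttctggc
Zc3h12a: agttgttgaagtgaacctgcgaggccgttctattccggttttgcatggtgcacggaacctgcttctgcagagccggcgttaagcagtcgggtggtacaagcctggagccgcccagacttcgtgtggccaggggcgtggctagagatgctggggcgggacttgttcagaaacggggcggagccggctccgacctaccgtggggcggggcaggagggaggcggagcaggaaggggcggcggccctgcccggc
Arid5a: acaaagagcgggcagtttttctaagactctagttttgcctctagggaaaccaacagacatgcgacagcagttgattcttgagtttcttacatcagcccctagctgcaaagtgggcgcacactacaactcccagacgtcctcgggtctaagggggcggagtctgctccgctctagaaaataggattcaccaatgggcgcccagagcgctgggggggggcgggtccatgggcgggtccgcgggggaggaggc

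The order of the levels changed with time when read in TPM, which is comparable between genes. In PBS it ran Zfp36l1 (138), Zfp36l2 (50.4), Noct (31.9), Elavl1 (28.7), Zfp36 (28.7), Arid5a (21), Rc3h1 (7.91), Zc3h12a (6.49), and Zc3h12c (2.20). Noct overlapped Elavl1 and Elavl1 overlapped Zfp36, and the other neighbours did not overlap. At 15 min Zfp36 (294) led, followed by Zfp36l1 (147) and Zfp36l2 (50.7), Arid5a (36.6) overlapped Noct (36.1), and Zc3h12a (8.31) overlapped Rc3h1 (8.02). At 30 min Zfp36 (972) was followed by Zfp36l1 (154), Arid5a (117), and Noct (90.4), with no overlap between neighbours. At 4 h the order was Noct (444), Zfp36 (342), Arid5a (226), Zfp36l1 (129), Zc3h12a (53.8), Elavl1 (30.5), Zfp36l2 (16.1), Rc3h1 (6.12), and Zc3h12c (2.38), again without overlap.

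**Figure D4:**
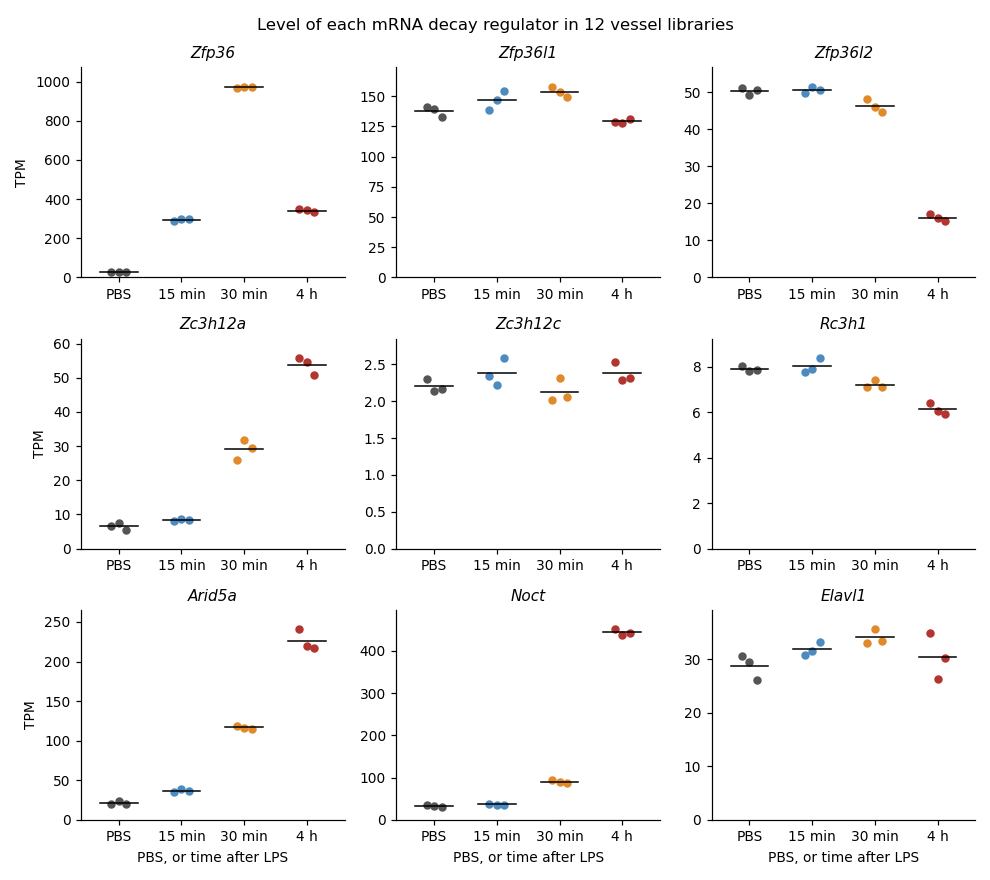
TPM (vertical axes, each from 0) of the 9 regulators in the 12 libraries, with 1 point per library and a line at the mean of each group. Zfp36 is highest at 30 min (972) while Zc3h12a, Arid5a, and Noct are highest at 4 h (53.8, 226, and 444), and Zfp36l2 is at 16.1 at 4 h.

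**Figure D5:**
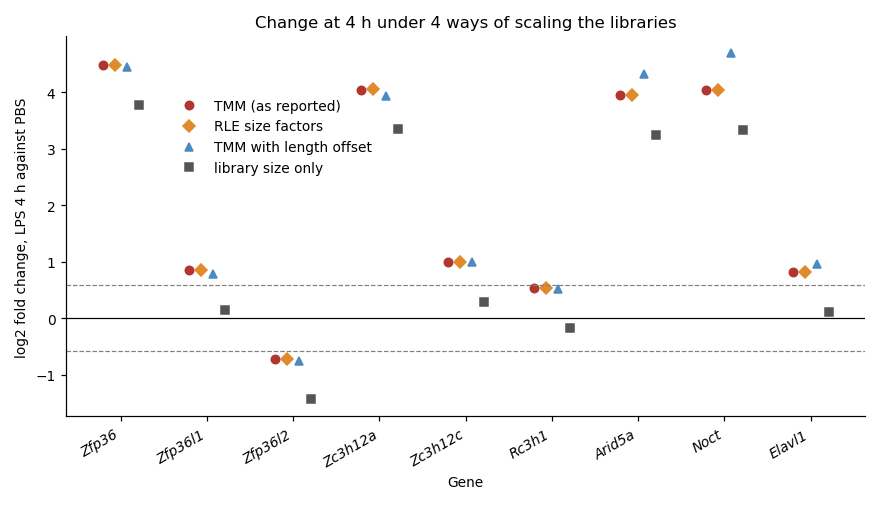
Log2 fold change of LPS 4 h against PBS (vertical axis) of each regulator under 4 ways of scaling the libraries, with dashed lines at 0.58 and −0.58. Zfp36, Zc3h12a, Arid5a, and Noct stay far above the limit, while Zfp36l1, Zc3h12c, and Elavl1 fall to 0.15, 0.29, and 0.11 with library size only.

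Genes with the most similar course were ranked by Pearson r of log2 CPM over the 12 libraries among 16297 other genes. The libraries form 4 groups, so r mostly reflects the group means, and it is given as a description. Zfp36 was closest to Junb (r = 0.999), Atf3 (0.996), and Per1 (0.994). Arid5a was closest to Kctd12 (0.999), Slc25a25 (0.999), and Ptgs2 (0.998), Zc3h12a to Ifrd1 and Cebpb (each 0.997), and Noct to Gm20186 (1.00), Plat (0.999), and Serinc3 (0.999). Zfp36l1 was closest to Cebpb (0.995), Ackr1 (0.994), and Rnd1 (0.993), and Zfp36l2 to Mea1 (0.996), Zfp651 (0.995), and Fgfr3 (0.995). For Elavl1 they were Pnpla2 (0.993), Morf4l2 (0.991), and Myl12a (0.990), for Rc3h1 Nabp1 (0.990), Gm48412 (0.990), and Gm15287 (0.988), and for Zc3h12c Opa3 (0.988), Nck1 (0.987), and Slc7a6os (0.987).

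The deadenylase that Zfp36 and Roquin recruit was described next, through lists chosen with earlier results of these data known. Of 16 genes of CCR4-NOT and its TOB and BTG adaptors, 1 was called higher at 15 min, 3 at 30 min, and 4 at 4 h, and 1 was lower at 4 h, with medians of 0.12, 0.082, and 0.17. Of all genes 3.31%, 3.78%, and 19.0% were higher at these times, and 1 of 16 at 15 min and 4 of 16 at 4 h are near those shares. The early rises were adaptors. Btg2 stood at a mean of 62.7 CPM in PBS, 378 CPM at 15 min, and 1300 CPM at 30 min (log2 fold change 2.59, SE 0.0305, and 4.37, SE 0.0316). Tob1 went from 73.3 to 162 CPM at 30 min (1.14, SE 0.0439), and Tob2, named after its value was seen, was at 0.94. At 4 h Btg2 (2.86) and Btg1 (2.50, SE 0.0297) were higher, and Cnot6l, a catalytic subunit, was lower (−0.70, SE 0.0552, adjusted p = 0.0177). Cnot7 (0.67) and Btg3 (0.70), named after their values were seen, were also called at 4 h and turned to −0.037 and −0.0070 with library size only. DESeq2 called 2 of the 16 higher and 0 lower at 4 h.

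Other enzymes of mRNA decay were called at about the rate of all genes or below it before 4 h, when 3.31% of genes were higher and 0.872% lower at 15 min and 3.78% and 0.799% at 30 min. Of the other 6 deadenylases edgeR called 0 at 15 min and 0 at 30 min, as did DESeq2, and 0 had an unadjusted p below 0.05. At 4 h Pde12 was higher (1.82, SE 0.0981), and Angel1 (−1.51, SE 0.134) and Parn (−0.75, SE 0.0983) were lower, with a median of −0.21 over the 6, and DESeq2 called 1 higher and 1 lower. Of 17 genes of decapping and 5′ decay edgeR called 0 at 15 and 0 at 30 min, as did DESeq2, and 1 had an unadjusted p below 0.05 at each time. At 4 h 3 were higher and 1 lower, with a median of 0.074, beside 19.0% and 13.8% of all genes. Dcp2, the decapping enzyme, rose by 3.34 (SE 0.0338), the exonuclease gene Xrn1 by 1.66 (SE 0.0493), and Patl1, named after its value was seen, by 1.32. Nudt16 was at −1.20 (SE 0.139). Of 12 exosome genes 1 was called at 15 min, Exosc6, named after its values were seen, which was at 0 in every PBS library and at a mean of 1.46 CPM at 15 min. DESeq2 did not call it, and it was at 0 again at 4 h. At 30 min edgeR and DESeq2 called 0 of the 12, and 1 had an unadjusted p below 0.05. At 4 h Exosc7 (−0.91, SE 0.0887) and Exosc5 (−0.85, SE 0.0919) were lower, with a median of 0.070, and DESeq2 called 1 lower.

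Relatives of the 9 and other binding proteins were called higher at 4 h at a share near the 19.0% of all genes, with 2 of 10 and 3 of 12. Of 10 paralogs edgeR called 0 at 15 min and 0 at 30 min, as did DESeq2, and 1 had an unadjusted p below 0.05 at 15 min and 0 at 30 min. At 4 h N4bp1, a relative of the Regnases, was higher (3.09, SE 0.0390), as was Arid5b (1.92, SE 0.0370), while Elavl4 was lower (−0.85, SE 0.156, adjusted p = 0.0477) with a median of 0.11 over the 10. DESeq2 did not call Elavl4. Of 12 other AU-rich element binding proteins edgeR and DESeq2 called 0 at 15 min and 0 at 30 min, and 0 had an unadjusted p below 0.05. At 4 h 3 were higher, with a median of 0.55, and DESeq2 called 2. Hnrnpab (1.02, SE 0.0330) and Pum2 (0.75, SE 0.0327) were at 0.32 and 0.047 with library size only, and Ptbp1 (0.64), named after its value was seen, was at −0.062. Of the 57 genes called at 4 h over the regulators and these lists, 3 turned direction with library size only, namely Cnot7, Btg3, and Ptbp1.

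Genes that act on the regulators' proteins were called at each time. Of 8 kinases and phosphatases that act on Zfp36, 2 were higher at 15 min, 1 at 30 min, and 3 at 4 h, with 1 lower at 4 h, and medians of 0.094, 0.13, and 0.35. Among all genes 3.31%, 3.78%, and 19.0% were higher at these times. At 4 h 13.8% of all genes were lower, and 1 of 8 is near that share. Dusp1, the phosphatase that switches off p38, stood at a mean of 80.5 CPM in PBS, 839 and 1010 CPM at the first 2 times, and 312 CPM at 4 h. These were changes of 3.38 (SE 0.0333), 3.65 (SE 0.0335), and 1.95 (SE 0.0333). Mapk11, a p38 gene, was called at 15 min (0.77, SE 0.0540, adjusted p = 0.00790), and DESeq2 did not call it. Mapkapk2, the kinase that phosphorylates Zfp36, was higher at 4 h (1.88, SE 0.0461), as was Ppp2ca (0.77), named after its value was seen, when Mapk14, the p38α gene, was lower (−1.07, SE 0.0530). Ppp2ca was at 0.066 when scaled to library size only.

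Of 9 tested regulators and partners of Regnase-1 edgeR and DESeq2 called 0 at 15 min, where 0 had an unadjusted p below 0.05. At 30 min 1 was higher and at 4 h 5 were, beside 3.78% and 19.0% of all genes. The medians were 0.047, 0.037, and 1.24 at the 3 times. Bcl10, of the complex whose protease cleaves Regnase-1, was higher at 30 min (1.1, SE 0.0603) and at 4 h (2.31), when the protease gene Malt1 was at 1.24. The kinase genes Ikbke (3.47, SE 0.105) and Tbk1 (2.67, SE 0.0435) and their partner Tank (1.76) were higher at 4 h, and Bcl10, Malt1, and Tank at 4 h were named after their values were seen.

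Known targets of Zfp36, Regnase-1, and Roquin were called higher at each time. Of 22 tested, 10 were called higher at 15 min, 16 at 30 min, and 20 at 4 h, beside 3.31%, 3.78%, and 19.0% of all genes. EdgeR and DESeq2 called 0 lower at each time, and 1, 0, and 0 were lower at an unadjusted p below 0.05. The median log2 fold change was 1.32, 4.01, and 7.85, and it was 0.43, 3.92, and 7.03 with the 4 genes that had no count in any PBS library set against a floor of 3 counts over that group. Cxcl1, a neutrophil chemokine, stood at a mean of 1.43 CPM in PBS and 88.0, 1122, and 3482 CPM at the 3 times, and Cxcl2 went from 0.214 to 11.9, 205, and 1365. Il6 was at 0 in PBS and at 548 CPM at 4 h, at least 15077-fold higher than the floor of 3 counts. Csf3 went from 0.245 CPM in PBS to 3170 at 4 h. From 30 min to 4 h 16 of the 22 targets were called higher, 1 lower, and 5 were not past the threshold, with a median of 2.60, beside 16.9% of all genes higher and 11.8% lower. In this interval Zfp36 fell by 0.93, while Cxcl1 and Cxcl2 rose by 1.63 (SE 0.0398) and 2.74 (SE 0.0286). A link between these changes was not tested. The target called lower was Nfkbid, an inhibitor of NF-kB named after its value was seen, which fell by 1.75 (SE 0.0901) over the same interval, from 40.7 to 12.2 CPM.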

How the data were processed

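RNA from cerebral vessels was sequenced in 12 libraries, 3 in each of 4 groups. The authors quantified transcripts with Salmon 1.2.1 against GRCm38.p6, and deposited estimated counts and TPM per transcript. The gene table deposited by the authors holds a signal, gene counts normalized with DESeq2. It is not the summed counts divided by 1 size factor per library. In LPS 4 h replicate 1, Noct had 26013 summed fragments and a table value of 62890, and Zfp36l1 had 5391 and 8973. The scaling of the table thus differs between genes, as it does with an offset for transcript length. Its columns were tied to libraries by the number in each library's transcript file, and all 12 best matched the file of their own number.

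Estimated counts were rounded after being summed to genes of GENCODE M21 (GRCm38), with 139852 of 140948 transcripts joined. The other 1096 held 0.482 to 0.850% of the fragments and were left out. Depth was 18309177 to 25882028 fragments per library, and replicates varied with a common biological coefficient of 0.0524. Genes past filterByExpr (minimum count 10) were fitted over all libraries with edgeR 4.0.16 in R 4.3.3 (TMM, glmQLFit, glmTreat against 1.5-fold, Benjamini-Hochberg adjusted p below 0.05), after the script was tested on simulated counts. DESeq2 1.42.0 and limma 3.58.1 (log2 of the gene table plus a pseudocount of 1 or 10, so its fold changes are on that scale and understate low genes) were alternatives, as were other scaling, no filter, no fold limit, a length offset, a replicate block, fits on the groups compared, and leaving out each library. Shares and ratios of TPM were compared with two-sided exact permutation tests in SciPy 1.17.1.

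The 9 genes, the lists, and the rules were chosen with earlier results of these data known. Beside the 9, the genes named were up to 2 rises and 2 falls per list and comparison with PBS, at a mean count of at least 50, and the 3 closest genes in course for each regulator at a mean CPM of at least 1. A gene that this rule named is not reported here. Other names are marked as chosen after their values were seen.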

Additional observations from a re-analysis of the deposited data

Results flagged for a closer look

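Differences between LPS times were tested in the same edgeR fit, over 19150 genes and 3 libraries a group. From 15 to 30 min the log2 change against PBS grew by 2.06 for Zfp36, 1.99 for Zc3h12a, 1.72 for Arid5a, and 1.43 for Noct. From 30 min to 4 h it grew by 2.33 for Noct, 1.58 for Zc3h12a, and 1.29 for Arid5a. Over the same interval it was −0.93 for Zfp36 and −0.92 for Zfp36l2, the 2 regulators that fell. In each of these 9 differences the 3 libraries of one time did not overlap the 3 of the other. The differences were picked because they were called, so the lack of overlap adds no support. The share of all genes without overlap between LPS times is not given here.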

How the results depend on the processing

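Against PBS edgeR called 800 genes at 15 min, 877 at 30 min, and 6273 at 4 h, with 891 for 30 against 15 min, and 5484 for 4 h against 30 min, and 2, 4, 8, 4, and 5 of the 9 regulators in that order. With no fold limit the genes were 7393, 7066, 13124, 7153, and 12498, and the regulators 6 at 15 min, 8 at 30 min, 8 for 30 against 15 min, and 9 for 4 h against 30 min. Limma with a pseudocount of 1 gave 406, 531, and 443 genes (10: 385, 497, and 413) at 15 min, at 30 min, and for 30 against 15 min, and 1 regulator at 15 min, where Arid5a was not called (adjusted p = 0.176 and 0.215). With library size only there were 10462 genes and 5 regulators at 4 h and 8848 genes for 4 h against 30 min. The causes were not tested. With estimated counts in place of TPM the share differences against PBS at the 3 times were 44.0, 69.0, and 55.4 percentage points for Zfp36, −29.7, −46.8, and −32.3 for Zfp36l1, and −14.3, −22.3, and −23.1 for Zfp36l2, the log2 ratio of Zfp36 to Elavl1 differed by 5.04 at 30 min, and that of Zc3h12a to Arid5a turned to 0.12 at 4 h. Leaving out each library gave 692 to 823, 775 to 879, 6021 to 6371, 759 to 911, and 5244 to 5560 genes, and 2, 4, 8, 4, and 5 to 6 regulators. Of 325 alternative values of counts, shares, and ratios, 294 kept their direction and size. Among fold changes of single regulators, 967 of 990 kept their side of the threshold, but not all of these kept their direction or size. With library size only, Rc3h1 at 4 h against PBS turned from 0.53 to −0.17, uncalled in both. For 4 h against 30 min, Elavl1 turned from 0.45 to −0.092, Zfp36l1 from 0.36 to −0.18, and Rc3h1 from 0.36 to −0.18, also uncalled. For 30 against 15 min, Zc3h12c turned from 0.12 to −0.022 and Rc3h1 from 0.13 to −0.015, both uncalled. Zfp36l2 at 15 min against PBS turned from 0.017 to −0.0070, uncalled as well. Zfp36l2 at 4 h against PBS stayed called and went from −0.73 to −1.43.

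The replicate block gave 776, 856, 6235, 876, and 5422 genes and 2, 4, 8, 4, and 5 regulators, and changed no call of a regulator. The labels do not say whether same-numbered libraries share more than a number. Over 18 pairs the correlations of their deviations were −0.0489 to 0.0679, and 0 were over 0.1. The own number correlated best in 17 of 36 checks, each a choice among 3 libraries, which does not settle whether anything is shared. The use of 3 libraries a group and of pooled mice limits the precision. Counts carry no strand and no molecular identifiers, and transcript shares rest on how Salmon splits fragments.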
